A study of Homo sapiens with 4 samples.

Results

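TXNIP and the arrestin-domain genes ARRDC1, ARRDC2, ARRDC3 and ARRDC4 encode the α-arrestins examined here. They were chosen by name, as 5 of the 41507 genes in the gene table and 12 of the 67765 transcripts in the transcript table, and all 5 had a mean of at least 0.5 RPKM over the samples. RPKM is the number of reads divided by the length of the gene and by the mapped reads of the library. It adjusts levels for length and depth, but it remains a share of each library and depends on the gene length used. RNA of the DLBCL (diffuse large B-cell lymphoma) lines SU-DHL-5 and Toledo was sequenced after treatment with DMSO, the vehicle, or with JQ1, an inhibitor of the BET family of acetyl-lysine readers, to ask which genes the inhibitor alters in lymphoma cells. JQ1 was given at 1 µM, and the sample labels give 6 h of treatment, whereas the published figure legend gives a longer time. Each of the 4 groups (SU-DHL-5 DMSO, SU-DHL-5 JQ1, Toledo DMSO and Toledo JQ1) is 1 sample of 1 established line with 2 libraries, which were averaged and counted as 1 replicate because the sources used here do not say what separates them. Differences between groups are thus given with no p-value and without any check by replicates. No engineered allele or further agent is named for any group.

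The α-arrestins are adaptor proteins with the arrestin fold. Most carry PY motifs that bind the WW domains of NEDD4-family ubiquitin ligases, which lets them direct membrane proteins towards ubiquitination, endocytosis or release in vesicles. TXNIP (thioredoxin-interacting protein) also binds reduced thioredoxin and lowers glucose uptake by driving the internalisation of glucose transporters, and with ARRDC4 it is a known target of the glucose-sensing transcription factor MondoA (encoded by MLXIP) with its partner MLX. ARRDC1 recruits the ESCRT protein TSG101 and forms small vesicles at the plasma membrane, ARRDC3 acts on the β2-adrenergic receptor and on integrin β4, and ARRDC2 is less well described.

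With JQ1, TXNIP, ARRDC1 and ARRDC3 were higher in both lines, ARRDC2 was lower in both lines, and ARRDC4 was higher in SU-DHL-5 and close to absent in Toledo. In SU-DHL-5, the 2 JQ1 libraries were both above the 2 DMSO libraries for 4 of the 5 genes, where 39.9% of the 10258 genes of at least 0.5 RPKM did so, and below them for ARRDC2, as for 37.5% of all genes. In Toledo, 3 of the 4 α-arrestin genes with more than 1 read lay above, where 28.8% of all genes did, and ARRDC2 again lay below, as did 43.1%. Libraries that did not overlap were therefore common among all genes, so the shares of genes with a ratio at least as large are given beside each value. A ratio of at least 2-fold upwards was seen for TXNIP alone in SU-DHL-5, where 1.83% of all genes passed it, and for ARRDC3 alone in Toledo, where 1.82% did. No α-arrestin gene passed it in both lines, where 0.741% of all genes did. None was at least 2-fold lower, although 6.25% of genes were so in SU-DHL-5, 7.93% in Toledo and 3.52% in both.

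One promoter of each gene is printed, because TXNIP, ARRDC4, ARRDC3 and ARRDC1 had higher levels with JQ1 and ARRDC2 lower levels. Each sequence is the 250 bases before a RefSeq start site on GRCh38.p14, 5′ to 3′ on the strand of the gene, in lower case with motif matches in capitals. The motifs searched on both strands were the E-box CACGTG, the related half-site CACGAG, a paired arrangement of 2 CACGNG half-sites with 5 bases between them, which overlaps both, and the CCAAT box. A forkhead motif, GTAAACA, was searched as well. In the sequences, ATTGG in capitals is a CCAAT box on the other strand. All 5 genes matched RefSeq by symbol, with 8 promoters between them.
TXNIP, chr1:145996580-145996829, minus strand: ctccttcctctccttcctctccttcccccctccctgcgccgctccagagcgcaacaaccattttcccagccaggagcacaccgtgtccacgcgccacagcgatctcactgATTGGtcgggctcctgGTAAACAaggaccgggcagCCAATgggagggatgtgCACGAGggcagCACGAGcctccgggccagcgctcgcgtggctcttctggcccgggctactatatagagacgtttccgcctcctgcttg
ARRDC4, chr15:97960453-97960702, plus strand: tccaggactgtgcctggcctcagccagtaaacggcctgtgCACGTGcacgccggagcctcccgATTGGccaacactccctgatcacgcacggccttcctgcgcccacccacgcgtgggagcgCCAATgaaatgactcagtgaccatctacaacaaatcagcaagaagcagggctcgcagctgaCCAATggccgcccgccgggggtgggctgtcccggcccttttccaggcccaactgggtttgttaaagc
ARRDC3, chr5:91383318-91383567, minus strand: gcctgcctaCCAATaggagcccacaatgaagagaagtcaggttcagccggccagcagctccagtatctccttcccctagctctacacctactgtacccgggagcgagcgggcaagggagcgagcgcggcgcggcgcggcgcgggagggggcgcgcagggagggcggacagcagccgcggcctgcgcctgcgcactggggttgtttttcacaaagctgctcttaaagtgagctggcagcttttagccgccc
ARRDC1, chr9:137605436-137605685, plus strand: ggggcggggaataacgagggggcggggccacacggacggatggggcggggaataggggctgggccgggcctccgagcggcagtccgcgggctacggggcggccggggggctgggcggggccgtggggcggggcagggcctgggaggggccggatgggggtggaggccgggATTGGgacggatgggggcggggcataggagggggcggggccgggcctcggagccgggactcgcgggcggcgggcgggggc
ARRDC2, chr19:18000874-18001123, plus strand: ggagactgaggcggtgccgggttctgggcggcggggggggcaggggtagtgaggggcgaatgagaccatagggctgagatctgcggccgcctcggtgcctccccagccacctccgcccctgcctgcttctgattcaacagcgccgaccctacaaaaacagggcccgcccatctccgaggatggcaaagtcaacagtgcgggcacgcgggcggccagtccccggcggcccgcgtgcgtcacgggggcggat

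The TXNIP promoter printed held CACGAG at 88 and at 77 bases before the start, which together make the paired arrangement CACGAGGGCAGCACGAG. This arrangement, of the kind bound by MondoA and MLX, was found in 16 of 34941 RefSeq promoters of the same length (0.0458%), against 5.58% with at least 1 CACGAG. The same promoter held CCAAT boxes at 140 and 105 bases and a forkhead motif at 124 bases, motifs that 32.0% and 2.98% of promoters contained. An alternative TXNIP promoter, at a start further downstream, held none of the motifs. The ARRDC4 promoter held CACGTG at 210 bases, as did 6.32% of promoters, and CCAAT boxes at 187, 128 and 67 bases. The ARRDC3 promoter held a CCAAT box at 241 bases, and a forkhead motif lay 29 bases before an alternative ARRDC3 start that is not printed. The ARRDC2 promoter printed held none of these letters, while the ARRDC1 promoter held a CCAAT box at 80 bases and an alternative ARRDC2 promoter held 1 at 93 bases. All distances are from the RefSeq starts. The measured gene models of TXNIP, ARRDC1 and ARRDC3 start at 145996631, 137605640 and 91383332, inside the promoters printed. Their printed motifs thus lie closer to those starts than the distances given. A match is a description of the sequence, and no binding was measured here.

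TXNIP (chr1:145992435-145996631 on GRCh38, the build named in the labels) had the highest gene RPKM of the 5 genes in every sample. By transcript, ARRDC1_3, the main transcript of ARRDC1, had a mean of 13.9 RPKM in SU-DHL-5 with DMSO, slightly above that of TXNIP. In SU-DHL-5, TXNIP was at 12.6 and 14.5 RPKM in the DMSO libraries and at 29.7 and 25.2 RPKM in the JQ1 libraries. In Toledo it was at 38.1 and 43.5 RPKM with DMSO and at 70.4 and 66.1 RPKM with JQ1. Both JQ1 libraries were above both DMSO libraries in each line, and every Toledo DMSO library was above every SU-DHL-5 JQ1 library, so the treated SU-DHL-5 cells did not reach the untreated level of Toledo. The mean in SU-DHL-5 went from 13.6 to 27.5 RPKM, a log2 ratio of 1.01 with JQ1 (95% exact binomial interval from the recovered reads 0.92 to 1.12, counting error only), or 2.02-fold. In Toledo it went from 40.8 to 68.3 RPKM, a log2 ratio of 0.74 (0.69 to 0.80), or 1.67-fold. These intervals rest on 1314 and 2539 reads for SU-DHL-5 and on 4084 and 6542 reads for Toledo, and they are narrower than the range over pairs of single libraries, 0.79 to 1.23 for SU-DHL-5 and 0.60 to 0.88 for Toledo. The 2-fold call in SU-DHL-5 was lost with library 2 of each sample alone, at a log2 ratio of 0.79, with scaling to the median ratio of all genes, at 0.99, and with a pseudocount of 1 RPKM, at 0.97. Among the 10258 genes, 1.72% had a log2 ratio at least as high in SU-DHL-5, and 4.25% did in Toledo, and the medians of all genes were 0.003 and -0.07 in that order.

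**Figure D1:**
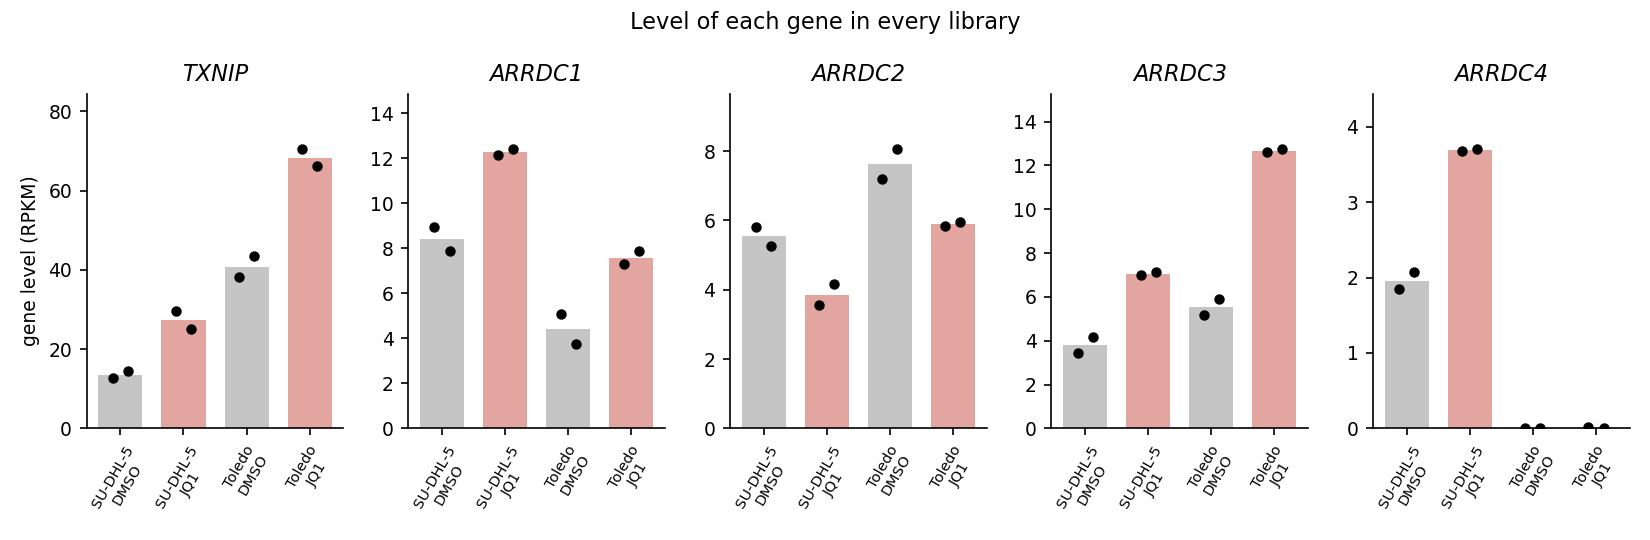
Level of each α-arrestin gene in RPKM (vertical axis, from 0, with its own scale per gene) in the 4 samples, with bars at the mean of the 2 libraries, dots at each library, grey for DMSO and red for JQ1. The red bars are higher than the grey bars of the same line for TXNIP, ARRDC1 and ARRDC3 and lower for ARRDC2, and ARRDC4 is near 0 in Toledo.

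ARRDC3 (chr5:91368724-91383332), which acts in receptor endocytosis, was at 3.43 and 4.16 RPKM in the SU-DHL-5 DMSO libraries and at 6.99 and 7.12 RPKM in the JQ1 libraries. In Toledo it was at 5.18 and 5.89 RPKM with DMSO and at 12.6 and 12.7 RPKM with JQ1. The treated libraries of each line lay close together and clear of the untreated ones. The log2 ratio was 0.88 (0.73 to 1.05) in SU-DHL-5, or 1.84-fold, and 1.18 (1.08 to 1.32) in Toledo, or 2.27-fold, the highest ratio of any α-arrestin gene in either line. Of all genes, 2.89% had a ratio at least as high in SU-DHL-5, and 1.21% did in Toledo. Its reads numbered 518 with DMSO and 913 with JQ1 in SU-DHL-5, against 779 and 1709 in Toledo. Every pair of single libraries in Toledo gave more than 2-fold, from 1.09 to 1.28 on the log2 scale, and the pairs in SU-DHL-5 gave 0.73 to 1.03. With library 1 of each sample alone the SU-DHL-5 ratio was 1.01, just past 2-fold.

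ARRDC4 (chr15:97960703-97973838), a close paralogue of TXNIP, was found at more than 1 read in SU-DHL-5 only. In SU-DHL-5 it was at 1.85 and 2.07 RPKM with DMSO and at 3.68 and 3.70 RPKM with JQ1. The 2 treated libraries were nearly equal and above both untreated ones. The log2 ratio was 0.88 (0.69 to 1.13), or 1.84-fold, from 261 to 467 reads, and 2.82% of all genes had a ratio at least as high. In Toledo, 0 reads were found in both DMSO libraries among 33919748 mapped reads, and 1 read in JQ1 library 1 among 32402509 mapped reads over both JQ1 libraries. Taking 3 reads over the 2 libraries as the limit that a count of 0 allows, the level in Toledo was under 0.0217 RPKM with DMSO, so SU-DHL-5 was at least 90.1-fold higher. With JQ1, the 467 reads of SU-DHL-5 against 1 read in Toledo gave a ratio of 486-fold per mapped read, with a 95% exact binomial interval from 86.9 to 19248 (counting error only). No ratio of JQ1 over DMSO was computed for ARRDC4 in Toledo, because both groups had no more than 3 reads.

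ARRDC1 (chr9:137605640-137615360), which drives vesicle budding with TSG101, was at 8.94 and 7.90 RPKM in SU-DHL-5 with DMSO and at 12.1 and 12.4 RPKM with JQ1. In Toledo the 2 DMSO libraries differed more, at 5.09 and 3.75 RPKM, and the JQ1 libraries were at 7.29 and 7.86 RPKM. The groups did not overlap in either line. The log2 ratio was 0.54 (0.42 to 0.68) in SU-DHL-5, or 1.45-fold, and 0.76 (0.60 to 0.94) in Toledo, or 1.70-fold. Of all genes, 10.6% reached the SU-DHL-5 ratio and 3.89% reached that of Toledo. The Toledo value depended on the library, at 0.51 with library 1 of each sample alone and 1.05, past 2-fold, with library 2 alone. Over all genes, the ratio between the 2 Toledo DMSO libraries followed gene length (Spearman's rho 0.58 across 10258 genes, which share the 2 libraries). The log2 ratio of library 2 over library 1 there was -0.43 for ARRDC1. It was 0.19 for TXNIP and 0.16 for ARRDC2, whose recovered lengths are similar. What set ARRDC1 apart was not tested. With centring on genes of similar length, the ARRDC1 ratio of JQ1 over DMSO in Toledo was 0.88.

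ARRDC2 (chr19:18001132-18014102) was the only α-arrestin gene with lower levels in the JQ1 samples. It was at 5.82 and 5.26 RPKM with DMSO and at 3.56 and 4.16 RPKM with JQ1 in SU-DHL-5. In Toledo it was at 7.20 and 8.05 RPKM with DMSO and at 5.82 and 5.95 RPKM with JQ1. All treated libraries lay below the untreated libraries of the same line. The log2 ratio was -0.51 (-0.72 to -0.33) for SU-DHL-5 and -0.37 (-0.53 to -0.21) for Toledo, on 532 and 352 reads for SU-DHL-5 and 760 and 562 for Toledo. The SU-DHL-5 value was -0.69 with library 1 alone and -0.33 with library 2 alone. These were moderate values, since a ratio at least as low was found for 15.0% of all genes in SU-DHL-5 and for 27.3% in Toledo.

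**Figure D2:**
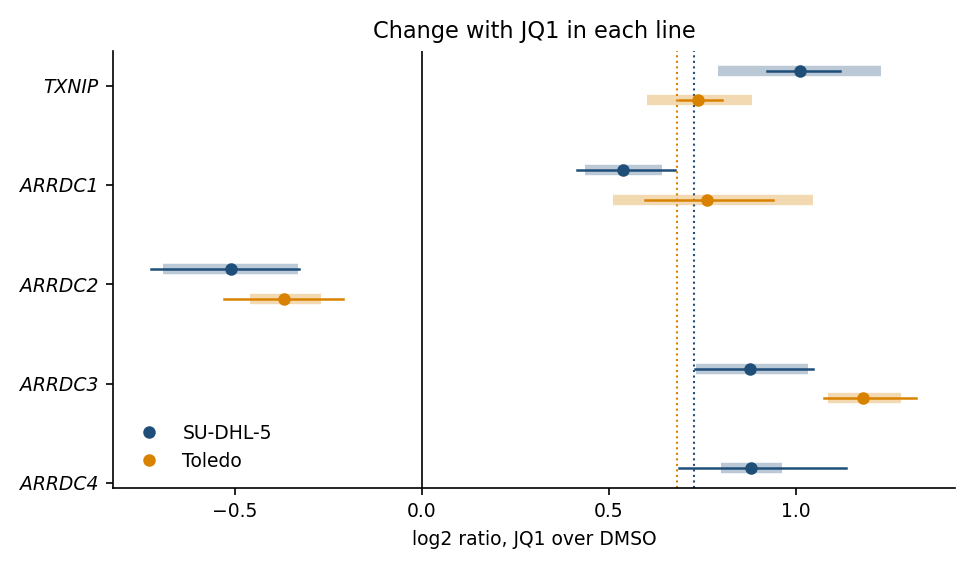
Log2 ratio of JQ1 over DMSO (horizontal axis, with 0.1 RPKM added) for each gene in SU-DHL-5 (blue) and Toledo (orange), with dots at the ratio of the means, thin lines for the 95% exact binomial interval of the reads and pale bars for the range over the pairs of single libraries. ARRDC2 lies left of 0 in both lines and the other genes right of it, and dotted lines mark the 95th percentile of all genes, 0.73 for SU-DHL-5 and 0.68 for Toledo.

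Set side by side, the lines gave ratios of the same sign for the 4 genes measured in both. The Toledo ratio minus the SU-DHL-5 ratio was -0.27 for TXNIP, 0.23 for ARRDC1, 0.14 for ARRDC2 and 0.30 for ARRDC3 on the log2 scale. The sign for ARRDC2 turned with the library, at 0.39 with library 1 alone and -0.10 with library 2 alone, and ARRDC1 gave 0.07 and 0.40. With 1 sample per group, these differences between lines were not tested. TXNIP had the larger ratio in SU-DHL-5, the line with its lower level in DMSO, whereas ARRDC3 had the larger ratio in Toledo, the line with its higher level in DMSO. In both lines together, the JQ1 libraries were all above the DMSO libraries for TXNIP, ARRDC1 and ARRDC3, as for 22.0% of all genes, and below them for ARRDC2, as for 28.9%.

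**Figure D3:**
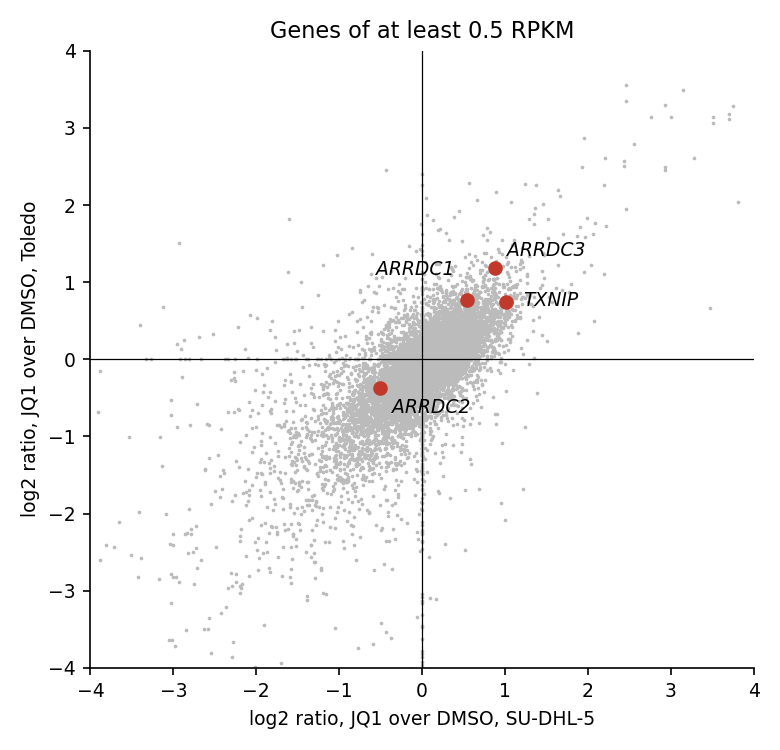
Log2 ratio of JQ1 over DMSO in SU-DHL-5 (horizontal axis) and Toledo (vertical axis) for genes of at least 0.5 RPKM (grey; axes end at -4 and 4), with 4 α-arrestin genes in red. TXNIP, ARRDC1 and ARRDC3 lie at the upper right of the cloud and ARRDC2 inside it at the lower left, and ARRDC4 is left out because it was near 0 in Toledo.

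With DMSO, the libraries of the lines did not overlap for any α-arrestin gene. The share of all genes that did so between the lines was not computed, so this is not read as a trait of the α-arrestins. TXNIP was higher in Toledo, with a log2 ratio of Toledo over SU-DHL-5 in DMSO of 1.58 (1.49 to 1.67). ARRDC3 and ARRDC2 were also higher in Toledo, at 0.53 (0.37 to 0.70) and 0.45 (0.30 to 0.62). ARRDC1 was lower in Toledo, at -0.91 (-1.08 to -0.75), and ARRDC4 was near 0 there, as above. Differences of this size between lines were common. Of all genes, 9.65% had a ratio at least as high as TXNIP, 28.2% as ARRDC3 and 31.1% as ARRDC2. A ratio at least as low as that of ARRDC1 was found for 15.4%.

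By gene RPKM, the order of the levels changed between samples below TXNIP. In SU-DHL-5 with DMSO it was TXNIP, ARRDC1, ARRDC2, ARRDC3 and ARRDC4, and with JQ1 ARRDC3 stood above ARRDC2. The means of ARRDC2 and ARRDC4 in SU-DHL-5 with JQ1 (3.86 and 3.69 RPKM) did not differ beyond their libraries, which overlapped. In Toledo with DMSO the order was TXNIP, ARRDC2, ARRDC3, ARRDC1 and ARRDC4, with ARRDC3 (5.53 RPKM) and ARRDC1 (4.42 RPKM) in neighbouring places whose libraries came within 0.1 RPKM of each other. With JQ1 it was TXNIP, ARRDC3, ARRDC1, ARRDC2 and ARRDC4. The summed level of the 5 genes was 33.3 RPKM in SU-DHL-5 with DMSO and 54.3 with JQ1, and 58.4 and 94.4 RPKM in Toledo. TXNIP made up 40.8% and 50.5% of that sum in SU-DHL-5, against 69.9% and 72.3% in Toledo. Both the order and these shares rest on the recovered gene lengths, and that of ARRDC1 is longer than its main transcript, ARRDC1_3. That transcript alone was at 13.9 RPKM in SU-DHL-5 DMSO, above TXNIP, and at 6.13 RPKM in Toledo DMSO, above ARRDC3.

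At the level of transcripts, TXNIP, ARRDC3 and ARRDC4 had a single model each, so their transcript values equalled their gene values. ARRDC1 had 6 models, of which ARRDC1_3 and ARRDC1_1 held at least 10% of the summed transcript RPKM in some sample. ARRDC1_3, of 1598 bases, was the main transcript, with 87.6% of the sum in SU-DHL-5 DMSO, 87.9% in SU-DHL-5 JQ1, 74.2% in Toledo DMSO and 79.4% in Toledo JQ1. It was at 14.5 and 13.3 RPKM with DMSO and 19.5 and 20.9 RPKM with JQ1 in SU-DHL-5, and at 7.72 and 4.55 RPKM with DMSO and 10.8 and 11.7 RPKM with JQ1 in Toledo. Its libraries did not overlap between treatments in either line, and its log2 ratio was 0.54 (0.40 to 0.68) for SU-DHL-5 and 0.87 (0.66 to 1.06) for Toledo. ARRDC1_1, of 1675 bases, was at 2.17 and 1.30 RPKM with DMSO and 2.39 and 1.10 RPKM with JQ1 in SU-DHL-5, where the libraries overlapped and the log2 ratio was 0.01 (-0.37 to 0.48). In Toledo it was at 1.01 and 1.99 RPKM with DMSO and 2.75 and 2.44 RPKM with JQ1, and the log2 ratio was 0.75 (0.41 to 1.22). The level of ARRDC1_3 exceeded that of the gene, whose recovered length of 3035 bases is longer.

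ARRDC2 had 3 models. ARRDC2_1, of 2528 bases, held 95.2% of the summed transcript RPKM in SU-DHL-5 DMSO, 89.5% in SU-DHL-5 JQ1, 90.7% in Toledo DMSO and 87.1% in Toledo JQ1. It was at 6.42 and 5.87 RPKM with DMSO and 3.21 and 4.84 RPKM with JQ1 in SU-DHL-5, and at 7.45 and 8.67 RPKM with DMSO and 6.08 and 5.88 RPKM with JQ1 in Toledo. Both lines had lower values with JQ1 in both libraries, with log2 ratios of -0.60 (-0.83 to -0.42) and -0.42 (-0.60 to -0.26). ARRDC2_2, which begins further downstream at position 18008168, was read unevenly between libraries of the same sample. It had 0 and 11 reads in the SU-DHL-5 DMSO libraries and 39 and 0 reads in the JQ1 libraries, so no direction was taken from it there. In Toledo it had 42 and 29 reads with DMSO and 29 and 43 with JQ1, and the libraries overlapped at a log2 ratio of 0.09 (-0.41 to 0.58). ARRDC2_3 was listed above 0 only in SU-DHL-5 DMSO library 1, with 14 reads by difference from the gene.

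**Figure D4:**
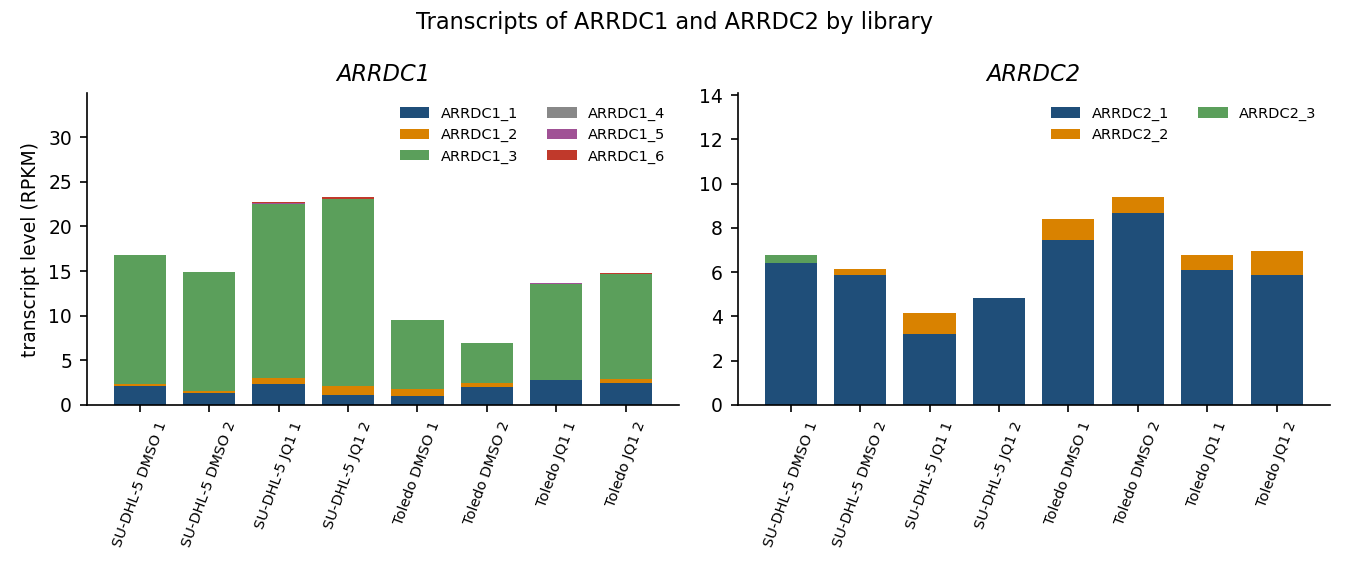
Stacked transcript levels in RPKM (vertical axis, from 0) of ARRDC1 (left) and ARRDC2 (right) in each of the 8 libraries, with 1 colour per transcript model. ARRDC1_3 and ARRDC2_1 make up most of each bar, and the bars with JQ1 are higher than those with DMSO for ARRDC1 and lower for ARRDC2 in both lines.

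Reads of overlapping genes could enter 1 of these values. C9orf37, listed in RefSeq as a synonym of the antisense gene ARRDC1-AS1, overlaps the end of ARRDC1 by 29 bases, and whether counting used the strand is not given in the sources used here. C9orf37 was lower with JQ1 in all libraries of each line, and its log2 ratios, -0.17 and -0.28, had the opposite sign to those of ARRDC1. ARRDC3-AS1 was listed at 0 in every library.

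The genes within 100 kb of an α-arrestin gene gave no common direction. TXNIP had 4 neighbours of at least 0.5 RPKM, with log2 ratios from -0.01 to 0.41 for SU-DHL-5 and -0.05 to 0.48 for Toledo, all below that of TXNIP in the same line. POLR3GL, a subunit of RNA polymerase III, was the neighbour of TXNIP with non-overlapping libraries in both lines, at 0.25 and 0.48. ARRDC1 had 5 such neighbours, from -0.17 to 0.43 for SU-DHL-5 and -0.41 to 0.22 for Toledo. ARRDC2 had 3, among them IL12RB1, a receptor chain for interleukin 12, at -1.48 and -2.14 in the direction of ARRDC2, and MAST3, a kinase gene outside the naming rule that was picked after its values were seen, at 0.49 and 0.31 in the other direction. ARRDC3 and ARRDC4 had no neighbour of that level.

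Among the regulators of TXNIP and ARRDC4, MLXIP was at 3.27 RPKM with DMSO and 3.99 with JQ1 in SU-DHL-5, and at 4.62 and 7.22 RPKM in Toledo. The log2 ratio was thus 0.28 in SU-DHL-5 and 0.63 in the Toledo line, with JQ1 libraries above DMSO libraries in both. MLX, the shared partner, was more abundant and lower with JQ1, at -0.07 and -0.32. MLXIPL, which encodes the related factor ChREBP, was listed at 0 in every library. The Toledo value of MLXIP was 0.94 with library 1 alone, above that of TXNIP, and 0.32 with library 2 alone.

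The thioredoxin system, which TXNIP binds and which keeps protein thiols reduced, moved in both directions. Of 10 genes of at least 0.5 RPKM among 11 listed, 1 was above and 4 were below in both lines, where 22.0% and 28.9% of all genes were so, and the median log2 ratio was 0.04 for SU-DHL-5 and -0.24 for Toledo, beside 0.003 and -0.07 for all genes. TXN, the thioredoxin that TXNIP binds, had log2 ratios of 0.05, with overlapping libraries, and -0.40. TXNRD2, the mitochondrial reductase, was the only gene of the list past 2-fold, at -1.73 and -2.56. The peroxiredoxins PRDX1 (0.37 and 0.31) and PRDX2 (-0.40 and -0.67), which use thioredoxin to remove peroxides, had opposite signs.

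Among genes for partners of the ARRDC proteins, those of at least 0.5 RPKM stayed within 2-fold in both lines. Of 9 NEDD4-family ligase genes, 7 were of at least 0.5 RPKM, with medians of 0.18 and 0.08 and 0 past 2-fold. HECW1 and HECW2, each expressed mainly in 1 line and below that mean, were chosen after their values were seen. HECW1 had 230 reads with DMSO and 19 with JQ1 in Toledo, and HECW2 had 227 and 37 in SU-DHL-5. ITCH had log2 ratios of 0.29 and 0.10, the latter with overlapping libraries, and WWP1 had 0.30 and 0.35. All 4 ESCRT genes of vesicle budding lay above in SU-DHL-5 and 2 of 4 in Toledo, where 39.9% and 28.8% of all genes did, with medians of 0.27 and 0.21. TSG101, which ARRDC1 recruits, had 0.27 and 0.29, and VPS4A, an ATPase that ends budding, had 0.28 and -0.14, the latter with overlapping libraries.

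Other genes of the arrestin fold differed in direction among themselves. Of 8 genes in the table, 4 were of at least 0.5 RPKM, and none was past 2-fold. ARRB2, a β-arrestin of receptor desensitisation, had log2 ratios of -0.53 and -0.91, and VPS26A, a retromer subunit, had 0.44 and 0.46. ARRDC5 was listed at 0 in every library.

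In glucose uptake and phosphorylation, 4 of 7 genes were of at least 0.5 RPKM, with medians of -0.19 and -0.10. SLC2A1, the glucose transporter that TXNIP internalises, had log2 ratios of 0.02 and 0.13 with overlapping libraries in both lines, and HK1, a hexokinase of the first step of glycolysis, had 0.05 and 0.46. The other two were chosen after their values were seen and were lower with JQ1 in all libraries of each line, at -1.42 and -0.59 for the transporter SLC2A3, the 1 gene of this list past 2-fold, in SU-DHL-5, and at -0.41 and -0.33 for the hexokinase HK2. DDIT4, whose protein forms a complex with TXNIP, was higher with JQ1 in SU-DHL-5 (0.86) and lower in Toledo (-0.49). These values moved with the library, to 1.23 and 0.55 in SU-DHL-5 and to -0.30 and -0.67 in Toledo with library 1 and library 2 alone.

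**Figure D5:**
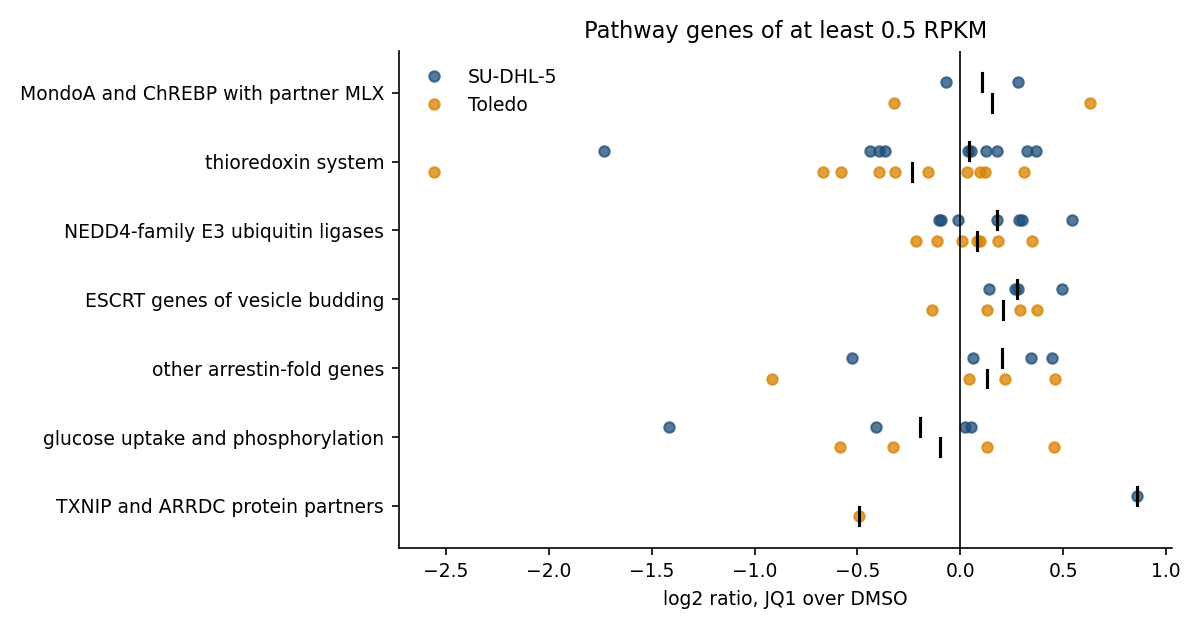
Log2 ratio of JQ1 over DMSO (horizontal axis) of each gene of at least 0.5 RPKM in the pathway lists (cell type markers are not plotted), by list (vertical axis), in SU-DHL-5 (blue) and Toledo (orange), with a black tick at the median of each list and line. Most points lie between -0.7 and 0.7, and TXNRD2 lies farthest from 0 in both lines.

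The genes whose 3 log2 ratios (JQ1 over DMSO in each line, and Toledo over SU-DHL-5 in DMSO) were nearest to those of an α-arrestin gene, by Euclidean distance over 9735 genes with at least 100 reads in a library, were named with no reading of shared function. For TXNIP they were PNPLA2 (distance 0.168), SNX29 (0.197) and ERV3-1 (0.219). For ARRDC3 they were TBCK (0.177), FAM220A (0.194) and LACTB (0.207). For ARRDC1 they were RWDD2B (0.0709), C4orf32 (0.0846) and GALT (0.0883), and for ARRDC2 they were CAMKK2 (0.0294), TMEM241 (0.0531) and GART (0.0635). The distances were larger for TXNIP and ARRDC3 than for ARRDC1 and ARRDC2. ARRDC4 was left out of this ranking because of its level in Toledo.

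The libraries held 14617583 to 17679831 mapped reads, of which 94.8% to 95.5% were on genes. Between the 2 libraries of a sample, the median absolute log2 ratio over 10258 genes was 0.07 to 0.16, and for the α-arrestin genes with reads the log2 ratio of library 2 over library 1 reached -0.43, for ARRDC1 in Toledo DMSO. All 8 B cell markers listed were expressed in both lines, with a summed level of 949 to 959 RPKM with DMSO and 632 to 650 RPKM with JQ1. Markers of T cells and of monocytes summed to at most 1.27 RPKM per list in every sample, with CD2, TRAC and FCGR1A at 0. Of the 5 epithelial or stromal markers, EPCAM, KRT8 and KRT18 were at 0 in every library, whereas VIM, which many blood cell lines also express, was at 144 RPKM and COL1A1 at 2.50 RPKM with DMSO in Toledo. As these are bulk samples, fewer cells that express a gene and less RNA of it per cell cannot be told apart.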

How the data were processed

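RNA from 4 samples was sequenced from libraries of the Illumina TruSeq Stranded mRNA kit, and CASAVA 2.0 and GRCh38 (hg38) are named in the submitters' processing notes. For each of 2 libraries per sample, 8 in all, the authors deposited a gene table and a transcript table in RPKM, and the aligner, the counting and the annotation are not given in the sources used here. No deposited column was left unmapped.

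Mapped reads per library were recovered from single-exon genes, and each gene length as the smallest one, from 100 to 40000 bases, that makes all values whole reads within 0.001, which succeeded for 14942 of 14944 genes with a value. Where a feature has few reads, both its length and its reads may be underestimated in proportion. Transcript reads added up to gene reads in 39 of 40 comparisons for the α-arrestin genes. Library means were compared as log2((JQ1 + 0.1)/(DMSO + 0.1)) in RPKM, which understates the change of low genes. Genes with a mean of at least 0.5 RPKM over the 4 samples served as background. Intervals are 95% exact Clopper-Pearson intervals of the share of reads, given the mapped reads, and they and the limit of 3 reads cover counting error only. Data were also simulated for 10258 genes, of which 200 were changed 4-fold with JQ1. Reads were drawn with counting error only, from a shared level per gene, without the spread between libraries or lines. Of the changed genes, 99.5% were called at 2-fold for SU-DHL-5 and 100% for Toledo, against 0.0199% and 0.0298% of the others. These rates follow from the settings and do not describe calls in the measured data. In the measured data, 0.35% (Toledo DMSO) to 0.42% (Toledo JQ1) of genes were past 2-fold between the 2 libraries of a sample. How often ratios of the size seen for the α-arrestin genes would be called was not tested.

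Named genes were the 5 α-arrestins, transcripts with at least 10% of the summed RPKM in a sample, list genes past 2-fold in both lines or among the 2 most abundant, MLXIP, MLX and TXN, the 3 nearest genes in pattern, and the most changed neighbour within 100 kb, by its larger absolute ratio in either line. Members, lists and motifs were chosen with earlier results of these data known. The alternatives varied the pseudocount, the filter, the scaling, the library, the table and a centring on 10 length classes. File starts count from 0, and starts are printed from 1. The scripts ran on Python 3.11.15 with scipy 1.17.1, numpy 2.4.6, matplotlib 3.10.9 and pandas 2.3.3.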

Additional observations from a re-analysis of the deposited data

Results flagged for a closer look

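For 2 genes named beside the α-arrestins, both libraries of JQ1 lay above both of DMSO in SU-DHL-5 and below them in Toledo. DDIT4, whose protein binds TXNIP, differed by -1.35 on the log2 scale (Toledo minus SU-DHL-5). DPH7, a neighbour of ARRDC1, had log2 ratios of 0.43 and -0.37 and differed by -0.80. The share of all genes with this pattern was not computed, so whether it is rare is not known. Of all genes, 39.9% lay above in SU-DHL-5 and 43.1% lay below in Toledo, which does not give the joint share. With 1 sample per condition, neither difference was tested. With library 1 and library 2 alone, DDIT4 had 1.23 and 0.55 for SU-DHL-5 and -0.30 and -0.67 for Toledo, and DPH7 had 0.27 and 0.59, then -0.35 and -0.40. None of the 4 α-arrestin genes measured in both lines changed direction between the lines in this way.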

How the results depend on the processing

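The 13 log2 ratios of the α-arrestin genes kept their sign in all 91 values computed under 7 alternatives each. Of these values, 81 stayed inside the counting interval of the reported ratio and 10 did not. For TXNIP in SU-DHL-5 they were 1.23 with library 1 alone and 0.79 with library 2 alone. For TXNIP in Toledo they were 0.88 with library 1 alone, 0.60 with library 2 alone, 0.81 with scaling to the median ratio and 0.86 with centring on length. For ARRDC1 in Toledo they were 0.51 with library 1 alone and 1.05 with library 2 alone. With a pseudocount of 1 RPKM, ARRDC3 in Toledo was at 1.06 and ARRDC4 in SU-DHL-5 at 0.66. ARRDC3 in SU-DHL-5 reached 1.01 with library 1 alone. The cause was not tested, other than that a larger pseudocount lowers a ratio by construction.

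In alternatives added after the data were seen, the difference between the lines turned in sign only for ARRDC2 with library 2 alone, at -0.10, among 28 values. Of 36 ratios of the named list genes and neighbours, 13 moved by over 1.5 times with 1 library alone and 4 changed sign (TXN in SU-DHL-5, and ITCH, VPS4A and SLC2A1 in Toledo).

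Counts of genes past 2-fold depended on the filter and the pseudocount. In SU-DHL-5, 188 genes were higher and 641 lower, against 81 and 340 with a pseudocount of 1 RPKM, 79 and 218 among genes of at least 5 RPKM, and 979 lower among all genes above 0. In Toledo, 187 were higher and 813 lower, against 86 and 449, 71 and 303, and 283 and 1297 in the same order. Transcript shares of ARRDC1_1 with library 2 alone were 8.74% in SU-DHL-5 DMSO, 4.74% in SU-DHL-5 JQ1 and 28.4% in Toledo DMSO, and with library 1 alone 10.5% in SU-DHL-5 JQ1 and 10.6% in Toledo DMSO. ARRDC1_3 held 90.0% with library 2 alone in SU-DHL-5 JQ1, and 81.0% and 65.0% with library 1 and library 2 alone in Toledo DMSO. ARRDC2_1 in SU-DHL-5 JQ1 held 77.3% and 100% with library 1 and library 2 alone, and ARRDC2_2 held 22.7% and 0% there and 0% and 4.22% in SU-DHL-5 DMSO.

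No paired analysis was made, because every group is 1 sample. The libraries are numbered, but the sources used here do not say whether equal numbers mark a pair. The median ratio used for scaling was 1.01 for SU-DHL-5 and 0.955 for Toledo. Few reads limited what could be said of ARRDC4 in Toledo and of minor transcripts such as ARRDC2_2, which had at most 43 reads in a library.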
